A study of Mus musculus with 9 samples.

Results

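Immediate early genes are transcribed within minutes of a stimulus, and they were measured here in regulatory T cells (Treg cells, CD4+ T cells that express Foxp3 and restrain other immune cells) sorted from mouse spleen. The set holds 34 genes, taken by symbol from a count table of 26683 genes, and all 34 were found. They are AP-1 subunits, EGR and NR4A factors, phosphatases, mRNA decay factors, NF-kB inhibitors and other transcripts known to respond to T cell receptor signals or to the handling of cells. The KO group was 4 mice of the strain EsrrgNf/f.Foxp3YFP-Cre, in which Cre made under Foxp3 control meets a floxed Esrrg, the gene of estrogen-related receptor gamma. The WT group was 5 mice of the strain B6N.Foxp3YFP-Cre, so both groups carry the Foxp3 reporter with Cre. Every mouse was labelled as a female of 2 to 3 months and gave 1 library. Library names in the titles start with Err for KO and B6-N for WT, and if they mark different colonies this cannot be told apart from genotype. No treatment is named for any library, and no label sets the first WT library, WT 1 (named B6-N-Treg-1), apart from the others.

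Total counts ran from 15269014 to 17425634 per library. Esrrg had 0 counts in all 9 libraries (a count of 0 allows up to 0.0206 CPM over all of them, counting error alone), so the labels could not be checked by it. KO 4 held 27 counts of Xist, the RNA of the inactive X chromosome, against 27355 to 35693 in the other 8 libraries, which goes against its label as female, so the call among the members is also given without KO 4. Foxp3 was at 532.9 to 601 CPM in every library. CPM is a gene's count scaled to library size, here with the trimmed mean of M values (TMM). In bulk RNA, fewer cells that express a gene and less RNA per cell cannot be told apart.

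Immediate early genes need no new protein for their induction. In T cells, receptor signalling through the ERK kinase pathway acts on serum response factor and its partners at CArG boxes, the protein CREB acts at cyclic AMP response elements (CRE), and NF-kB acts at its own sites. Many of the products switch the response off again, among them the dual specificity phosphatases, the NF-kB inhibitors and the proteins that bind AU-rich elements and destroy mRNA. Tissue dissociation and cell sorting are known to induce the same genes, along with heat shock genes. In Treg cells, NR4A receptors help to maintain the lineage and EGR factors restrain activation.

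WT 1 stood apart from the other 8 libraries in most of these genes. It was the highest of all 9 libraries for 30 of the 34 genes, and for 28 of the 32 that passed the filter on low counts, where 14.9% of the 12738 genes tested had WT 1 highest. It was at least 2-fold above the mean of WT 2 to WT 5 for 18 of the 32, against 2.01% of all genes tested, at least 4-fold above it for 9 and at least 10-fold for 4. The median log2 ratio of WT 1 over that mean was 1.05 for the 32 genes (0.5 CPM added to both sides) and 0.00057 over all genes tested. WT 1 is 1 library singled out for its values, so its ratios are a description with no p-value. The 34 genes were also chosen with earlier results of these data known. Their shares and ranks beside all genes are therefore a description and no independent support. Together the 34 genes took 0.544%, 0.553%, 0.538% and 0.518% of counts in KO 1 to KO 4, 1.47% in WT 1 (95% Wilson interval 1.46 to 1.47, counting error alone), and 0.6005%, 0.543%, 0.522% and 0.505% in WT 2 to WT 5. Among the 11045 tested genes with a mean of at least 2 CPM, ranked by the ratio of WT 1 over WT 2 to WT 5, members of the set held 8 of the first 10 places, 10 of the first 20 and 13 of the first 50. Fosb, Fos, Klf4 and Jun held the first 4 places.

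**Figure D1:**
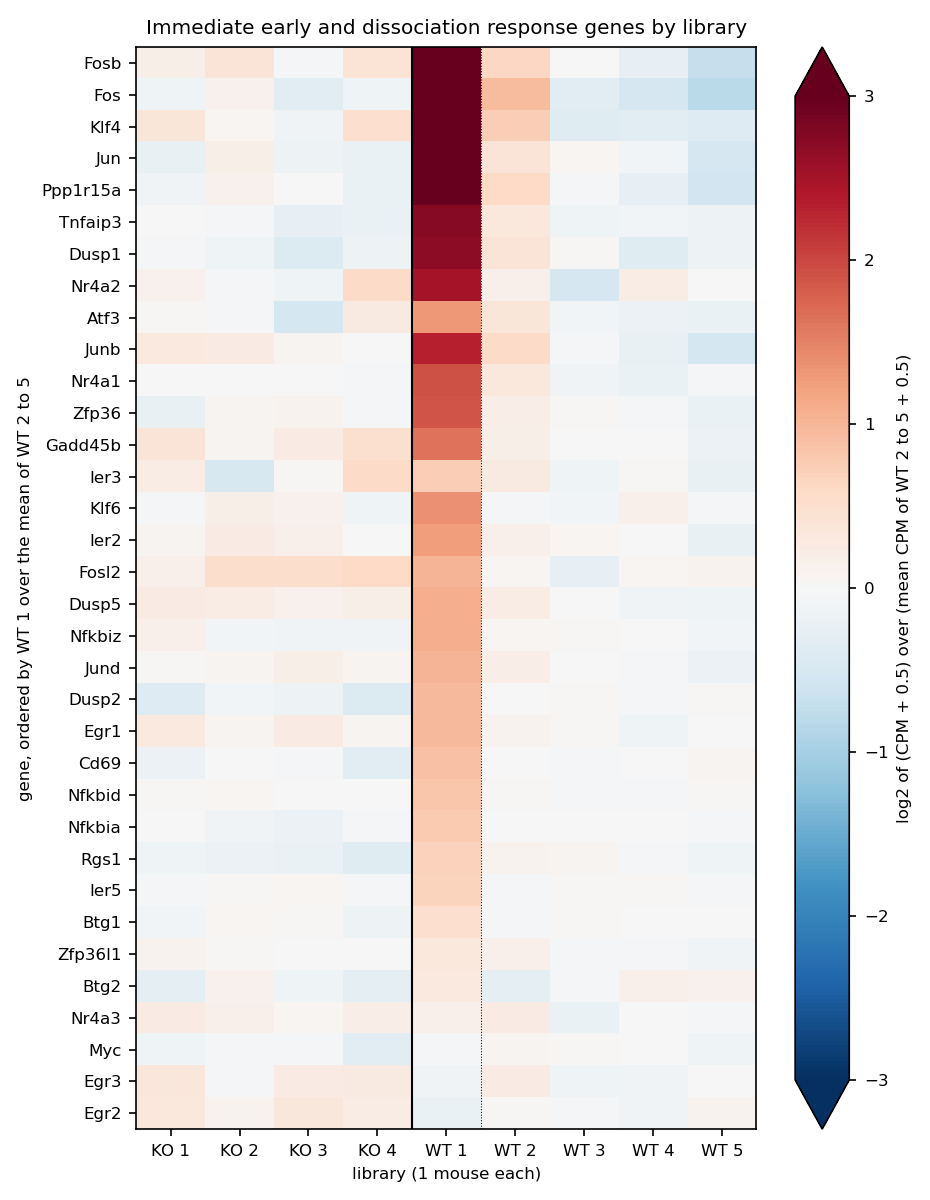
Level of each of the 34 genes (rows, ordered by the ratio of WT 1 over WT 2 to WT 5) in each library (columns), as log2 of CPM + 0.5 over the mean CPM of WT 2 to WT 5 + 0.5. The WT 1 column is the highest in 30 rows, and Nr4a3, Myc, Egr3 and Egr2, the 4 lowest rows, are the exceptions. Colours end at 3 in each direction.

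**Figure D2:**
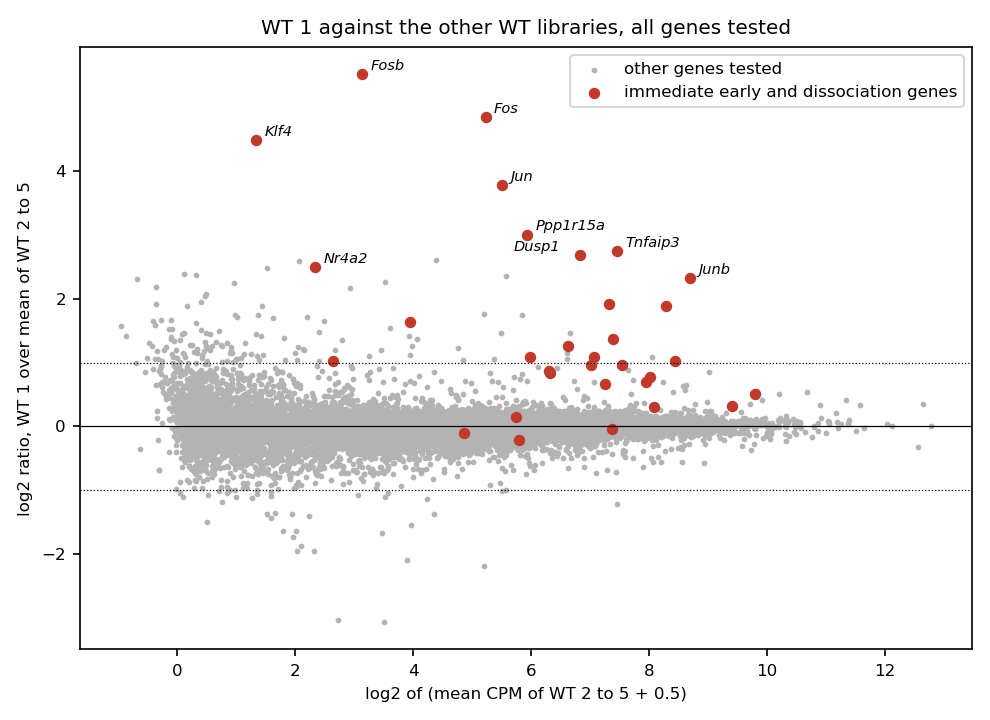
Log2 ratio of WT 1 over the mean of WT 2 to WT 5 (y axis) against log2 of that mean + 0.5 CPM (x axis) for the 12738 genes tested. The 32 members that passed the filter are in red, with those at a log2 ratio of at least 2 named, and dotted lines mark 2-fold.

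Fosb and Fos, both AP-1 genes, had the largest ratios of the set. AP-1 is a dimer of a FOS and a JUN protein, and all 6 of its tested genes were at least 2-fold higher in WT 1 than the mean of WT 2 to WT 5. Fos (chromosome 12, 85473890 to 85477273, mm10) was at 33.9, 40.6, 29.4 and 33.7 CPM in KO 1 to KO 4, 1078 CPM in WT 1, and 71.8, 28.9, 25.9 and 20.9 CPM in WT 2 to WT 5. Fosb (chromosome 7, 19302696 to 19310051) was at 9.35, 10.9, 7.88 and 11.2 CPM in KO 1 to KO 4, 401 CPM in WT 1, and 13.0, 8.21, 6.84 and 4.95 CPM in WT 2 to WT 5. WT 1 was 29.3 times the mean of WT 2 to WT 5 for Fos and 48.6 times for Fosb, and for both genes WT 2 was the next highest library. Jun (chromosome 4, 95049034 to 95052222) was at 38.6, 50.7, 40.4 and 38.8 CPM in KO 1 to KO 4, 622 CPM in WT 1, and 59.0, 46.5, 42.4 and 31.4 CPM in WT 2 to WT 5. Junb, a partner that can restrain the activity of Jun, was at 506, 489.8, 439.7 and 419.8 CPM in KO 1 to KO 4, 2072 CPM in WT 1, and 614, 404, 352 and 285 CPM in WT 2 to WT 5. Jund, the JUN member that resting cells express, was at 354, 368, 393 and 369.8 CPM in KO 1 to KO 4, 705 CPM in WT 1, and 398, 351, 336 and 305 CPM in WT 2 to WT 5. The ratio was 13.9 for Jun, 5.01 for Junb and 2.03 for Jund, and in all 3 genes the KO libraries lay within the range of WT 2 to WT 5. Fosl2, which encodes the FOS relative Fra-2, was at 6.44, 8.48, 8.47 and 8.89 CPM in KO 1 to KO 4, 12.3 CPM in WT 1, and 6.002, 4.77, 5.98 and 6.26 CPM in WT 2 to WT 5. It was low in every library, WT 1 was 2.13 times the mean of WT 2 to WT 5, and the KO libraries lay between these. Atf3, a stress-inducible relative, was too low to test, with 4, 3, 0 and 6 counts in KO 1 to KO 4, 21 in WT 1, and 7, 3, 2 and 2 in WT 2 to WT 5.

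**Figure D3:**
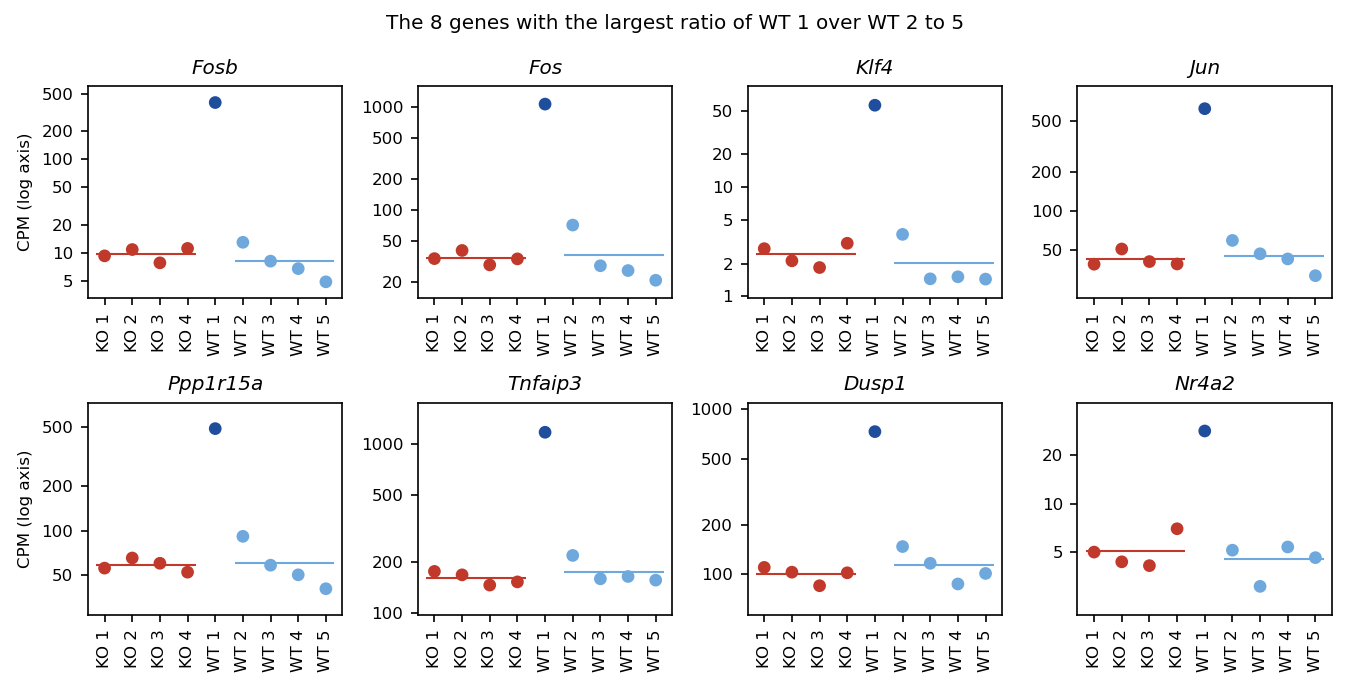
CPM (log axis) in each library for the 8 tested genes with the largest ratio of WT 1 over WT 2 to WT 5. Points are libraries, KO in red, WT 1 in dark blue and WT 2 to WT 5 in light blue, and lines are the means of the KO libraries and of WT 2 to WT 5. WT 1 is above all other libraries in the 8 panels, by 4.02-fold over the next one in Nr4a2 and 30.8-fold in Fosb.

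EGR factors are zinc finger proteins induced through ERK and calcium signals, and WT 1 was the highest library for 1 of the 3. Egr1 was at 158, 137, 154 and 137 CPM in KO 1 to KO 4, 253 CPM in WT 1, and 138, 133, 118 and 127 CPM in WT 2 to WT 5, so WT 1 was 1.96 times the mean of WT 2 to WT 5. Egr2 was at 68.3, 59.3, 70.0 and 64.5 CPM in KO 1 to KO 4, 47.6 CPM in WT 1, and 56.7, 53.2, 51.4 and 58.8 CPM in WT 2 to WT 5. Egr3 was at 36.6, 27.7, 34.1 and 34.5 CPM in KO 1 to KO 4, 26.7 CPM in WT 1, and 33.8, 26.02, 26.4 and 28.4 CPM in WT 2 to WT 5. WT 1 was the lowest of all 9 libraries for Egr2, at 0.864 times the mean of WT 2 to WT 5, and it was within their range for Egr3. The KO libraries did not overlap the WT libraries for Egr2, whose lowest KO value was 59.3 CPM and highest WT value 58.8 CPM.

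The NR4A genes encode orphan nuclear receptors that T cell receptor signals induce, and Nr4a1 is widely used as a reporter of such signals. Nr4a1 was at 157, 157, 156 and 154 CPM in KO 1 to KO 4, 599 CPM in WT 1, and 198, 147, 138 and 152 CPM in WT 2 to WT 5. Nr4a2 (chromosome 2, 57106830 to 57124003) was at 5.02, 4.37, 4.14 and 6.99 CPM in KO 1 to KO 4, 28.1 CPM in WT 1, and 5.15, 3.08, 5.39 and 4.63 CPM in WT 2 to WT 5. Nr4a3 was at 62.6, 58.6, 55.5 and 60.8 CPM in KO 1 to KO 4, 58.7 CPM in WT 1, and 62.7, 46.3, 52.3 and 50.5 CPM in WT 2 to WT 5. WT 1 was 3.77 times the mean of WT 2 to WT 5 for Nr4a1, 6.16 times for Nr4a2 and 1.11 times for Nr4a3, for which WT 2, KO 1 and KO 4 were above WT 1. Of the other transcription factors, Klf4, a zinc finger factor linked to T cell quiescence (chromosome 4, 55527143 to 55532466), was at 2.74, 2.12, 1.84 and 3.07 CPM in KO 1 to KO 4, 56.2 CPM in WT 1, and 3.70, 1.45, 1.51 and 1.44 CPM in WT 2 to WT 5. Klf6 was at 158, 187, 181 and 153 CPM in KO 1 to KO 4, 429 CPM in WT 1, and 159.8, 157, 183 and 163 CPM in WT 2 to WT 5. Myc, which drives growth and metabolism in activated T cells, was at 151, 159, 158 and 133 CPM in KO 1 to KO 4, 161 CPM in WT 1, and 175, 169, 167 and 151 CPM in WT 2 to WT 5. Klf4 was 27.8 times the mean of WT 2 to WT 5 in WT 1 and Klf6 2.59 times, whereas Myc was 0.971 times that mean and within the range of the other WT libraries.

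Genes that act back on the signal were high in WT 1 to different degrees. Dusp1, a phosphatase of the kinases p38 and JNK (chromosome 17, 26505590 to 26562128), was at 110.3, 103, 85.5 and 102 CPM in KO 1 to KO 4, 731 CPM in WT 1, and 148, 117, 87.6 and 101 CPM in WT 2 to WT 5. Dusp5, a nuclear phosphatase of ERK, was at 73.5, 72.2, 68.5 and 70.2 CPM in KO 1 to KO 4, 132 CPM in WT 1, and 72.2, 61.3, 58.0 and 57.3 CPM in WT 2 to WT 5. Dusp2 is a further nuclear phosphatase and was at 143, 177, 168 and 141 CPM in KO 1 to KO 4, 365 CPM in WT 1, and 186, 189.8, 179.7 and 190.0 CPM in WT 2 to WT 5. The ratio of WT 1 over WT 2 to WT 5 was 6.45 for Dusp1, 2.13 for Dusp5 and 1.96 for Dusp2, and the KO libraries lay below every WT library for Dusp2. Tnfaip3, which encodes A20, a ubiquitin-editing inhibitor of NF-kB signalling (chromosome 10, 19000910 to 19015657), was at 176, 168, 146 and 153 CPM in KO 1 to KO 4, 1171 CPM in WT 1, and 219, 159, 164 and 156 CPM in WT 2 to WT 5. Nfkbia, which encodes the inhibitor IkB-alpha, was at 258, 239, 229 and 246 CPM in KO 1 to KO 4, 439 CPM in WT 1, and 260.3, 259, 254 and 252 CPM in WT 2 to WT 5. WT 1 was 6.71 times the mean of WT 2 to WT 5 for Tnfaip3 and 1.71 times for Nfkbia, and KO libraries of neither gene went above the range of WT 2 to WT 5. Nfkbiz, a nuclear IkB protein, was at 146, 126, 123 and 124 CPM in KO 1 to KO 4, 281 CPM in WT 1, and 138, 135, 131 and 126 CPM in WT 2 to WT 5. Nfkbid, a nuclear IkB protein that helps Treg cells to develop, was at 81.2, 83.1, 79.2 and 79.1 CPM in KO 1 to KO 4, 143 CPM in WT 1, and 81.4, 78.2, 77.8 and 81.0 CPM in WT 2 to WT 5. WT 1 was 2.12 times the mean of WT 2 to WT 5 for Nfkbiz and 1.80 times for Nfkbid.

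Genes of mRNA decay were highest in WT 1 for all 4 members. Zfp36 encodes tristetraprolin, which binds AU-rich elements and recruits the deadenylase, and it was at 267, 331, 335 and 300.1 CPM in KO 1 to KO 4, 1149 CPM in WT 1, and 356, 319, 301 and 271 CPM in WT 2 to WT 5. Its relative Zfp36l1 was at 731, 689, 678 and 679 CPM in KO 1 to KO 4, 846 CPM in WT 1, and 752, 662, 665 and 625 CPM in WT 2 to WT 5. Both lay highest in WT 1, with WT 2 the next WT library. Btg1, which with Btg2 helps to keep T cells quiescent, was at 831, 919, 909.9 and 799.5 CPM in KO 1 to KO 4, 1256 CPM in WT 1, and 865, 906, 884 and 877 CPM in WT 2 to WT 5. Btg2 was at 223, 292, 244 and 224 CPM in KO 1 to KO 4, 332 CPM in WT 1, and 223, 259.6, 298 and 294 CPM in WT 2 to WT 5. The ratio of WT 1 over WT 2 to WT 5 was 3.69 for Zfp36, 1.42 for Btg1, 1.25 for Zfp36l1 and 1.24 for Btg2. Per kilobase of exon, Zfp36l1 had the highest level of the 34 genes in WT 2 to WT 5, at a mean of 226 CPM per kilobase, followed by Jund at 208 and Junb at 179.8. In WT 1, Junb led with 900.4 CPM per kilobase, ahead of Fos with 458, Jund with 423 and Zfp36 with 331. The length used is that of all annotated exons merged. For Zfp36 it was 3470 bases, the whole gene from start to end, so its level per kilobase can be too low and its place is uncertain.

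Stress genes included Ppp1r15a, which encodes the phosphatase subunit GADD34 that restores translation after stress (chromosome 7, 45522916 to 45526268). Ppp1r15a was at 56.0, 65.5, 60.3 and 52.6 CPM in KO 1 to KO 4, 488 CPM in WT 1, and 91.7, 58.6, 50.4 and 40.6 CPM in WT 2 to WT 5. Gadd45b, which acts on p38 and JNK signalling, was at 19.8, 15.9, 17.7 and 20.97 CPM in KO 1 to KO 4, 47.4 CPM in WT 1, and 16.8, 14.9, 14.8 and 13.2 CPM in WT 2 to WT 5. WT 1 was 8.09 times the mean of WT 2 to WT 5 for Ppp1r15a and 3.18 times for Gadd45b. Ier2 and Ier5 are nuclear proteins of the immediate early response. Ier2 was at 104, 117, 109.6 and 97.3 CPM in KO 1 to KO 4, 234 CPM in WT 1, and 109, 102, 97.3 and 83.8 CPM in WT 2 to WT 5. Ier5 was at 146, 155, 158 and 145 CPM in KO 1 to KO 4, 239 CPM in WT 1, and 147, 154, 155 and 148 CPM in WT 2 to WT 5. WT 1 was 2.39 times the mean of WT 2 to WT 5 for Ier2 and 1.58 times for Ier5. Ier3 was too low to test, at 9, 2, 6 and 13 counts in KO 1 to KO 4, 16 in WT 1, and 9, 5, 6 and 4 in WT 2 to WT 5. Rgs1, which damps signals of G protein-coupled receptors, was at 224, 217, 215 and 191 CPM in KO 1 to KO 4, 396 CPM in WT 1, and 262, 258, 238 and 223 CPM in WT 2 to WT 5. Cd69, a surface protein that retains lymphocytes in tissue, was at 68.4, 76.8, 74.1 and 62.1 CPM in KO 1 to KO 4, 142 CPM in WT 1, and 76.6, 74.3, 78.0 and 82.4 CPM in WT 2 to WT 5. WT 1 was 1.83 times the mean of WT 2 to WT 5 for Cd69 and 1.62 times for Rgs1.

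Among the other 8 libraries the genes varied to different degrees. The highest over the lowest value had a median of 1.36 over the 32 tested genes, against 1.28 over all genes tested, and was under 1.5 for 22 of the 32. For the 9 genes at least 4-fold higher in WT 1 its median was 2.26, with Fos at 3.44, Fosb at 2.63 and Klf4 at 2.57. WT 2 was the highest of WT 2 to WT 5 for 23 of the 32 and the highest of all 8 for 16. Of the 9 genes at least 4-fold higher in WT 1, WT 2 was the highest of WT 2 to WT 5 for 8, with a median of 1.77 times the mean of WT 3 to WT 5, where the median over all genes tested was 0.998. Fos was the widest of the members that passed the filter, and its WT 2 value was 2.85 times the mean of WT 3 to WT 5.

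Between KO and WT, 1 member passed the test when all libraries were used, and none passed without WT 1. With all 9 libraries, edgeR's quasi-likelihood test with Benjamini-Hochberg adjustment over all genes called 1 of the 32 members higher in KO, where 1.4% of all genes were called higher, and 0 lower, where 1.88% were called lower. The gene was Egr2, at a mean of 65.5 ± 4.78 CPM in KO (SD, n = 4) and 53.5 ± 4.42 CPM in WT (SD, n = 5). Its log2 fold change, KO over WT, was 0.29 ± 0.067 (SE) with edgeR adjusted p = 0.0368. Without WT 1 it was 0.25 ± 0.061 with edgeR adjusted p = 0.0529, and without KO 4 it was 0.30 with edgeR adjusted p = 0.0947. The call also ended without WT 3, WT 4, KO 1 or KO 3. Over 20 alternatives the edgeR, DESeq2 or voom adjusted p of Egr2 ran from 0.0076 to 0.203 and was under 0.05 in 10 of them. Its paralogue Egr3 was 0.23 ± 0.094 (edgeR adjusted p = 0.178).

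Fold changes of the other members were mostly negative with WT 1 included and about evenly split without it. With all libraries, 28 of the 32 fold changes were negative, the median was -0.30 on the log2 scale against 0.0052 over all genes tested, and 3 members had an unadjusted p under 0.05. Without WT 1, 15 were negative and 17 positive, the median was 0.010 against 0.0046 over the 12617 genes then tested, and 13 members had turned from negative to positive. Without WT 1 the test called 0 of the 32 members higher, where 1.02% of all genes were called higher, and 0 lower, where 1.61% were called lower. At an unadjusted p under 0.05 there were 8 members. The share of all genes at that limit is not given here, so neither this 8 nor the 3 above is read as a trait of the set. The median SE over the 32 genes was 0.26 with all libraries and 0.082 without WT 1, where the median over all genes tested was 0.075 in both fits.

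Fos shows the size of this shift. It averaged 34.4 ± 4.64 CPM in KO (SD, n = 4), 245 ± 466 CPM in WT (SD, n = 5), and 36.9 ± 23.5 CPM in WT without WT 1 (SD, n = 4). The log2 fold change of Fos was -2.83 ± 1.47 (edgeR adjusted p = 0.309) with all libraries and -0.10 ± 0.42 (edgeR adjusted p = 0.92) without WT 1. Fosb was at -3.14 ± 1.68 with all libraries and 0.25 ± 0.27 without WT 1, and Klf4 at -2.39 ± 1.42 and 0.27 ± 0.32. For the 9 genes at least 4-fold higher in WT 1, the log2 fold changes lay between -3.14 and -0.68 with all libraries and between -0.18 and 0.27 without WT 1, with edgeR adjusted p of 0.309 to 0.575 and 0.594 to 0.944. For the 14 genes under 2-fold in WT 1 they lay between -0.50 and 0.29, and between -0.24 and 0.25. None of the 31 members other than Egr2 had an adjusted p under 0.05 in any alternative that gave one (DESeq2 gave none for 8 members, Fos, Fosb, Klf4 and Jun among them), the smallest being 0.05005 for Egr3 without WT 2.

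**Figure D4:**
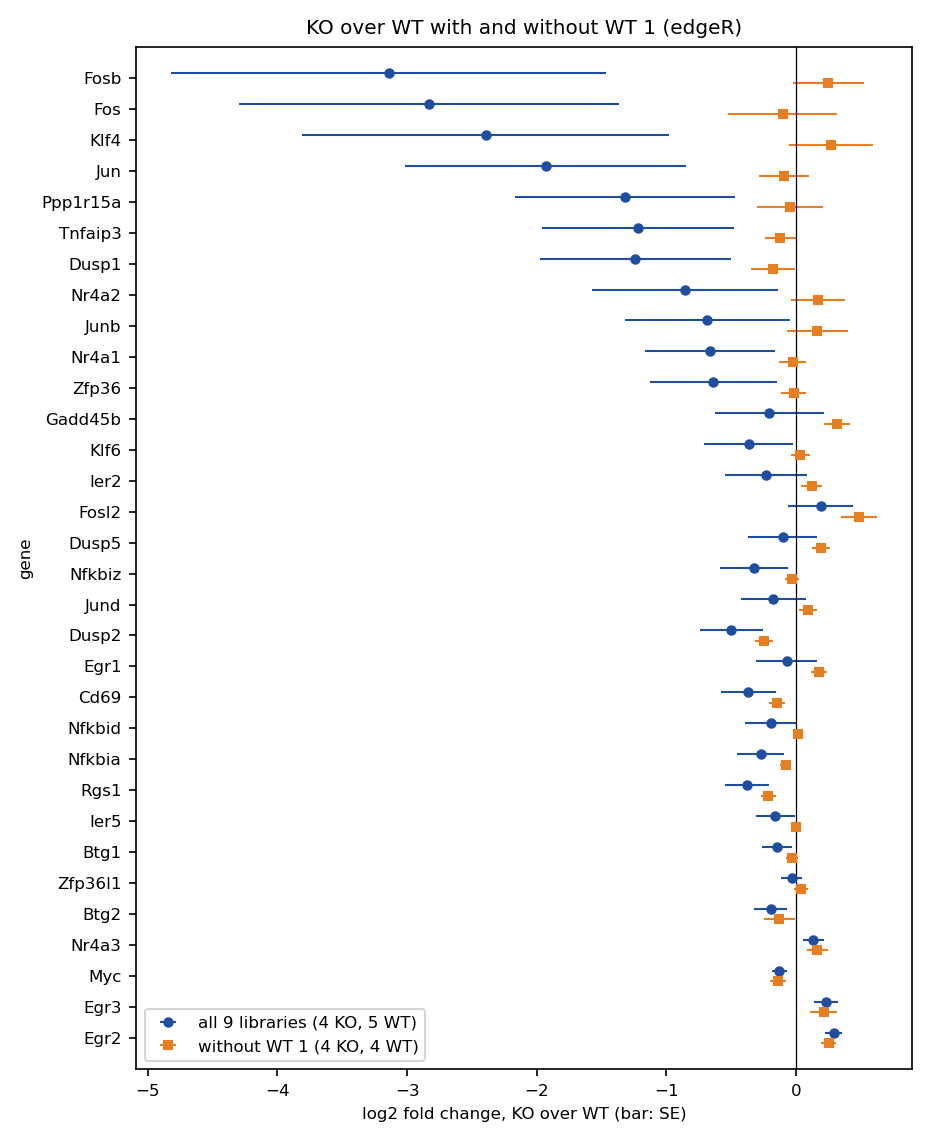
Log2 fold change, KO over WT, with its SE for the 32 tested genes (rows, ordered by the ratio of WT 1 over WT 2 to WT 5), from edgeR with all libraries (blue circles) and without WT 1 (orange squares). Fosb, Fos, Klf4 and Jun lie between -3.14 and -1.93 with all libraries and between -0.10 and 0.27 without WT 1, while Egr2 is at 0.29 and 0.25.

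Some members came closest to a difference without WT 1, although none passed the adjusted threshold. The libraries of the groups did not overlap for 2 members with all libraries, Egr2 and Dusp2, where this held for 9.07% of all genes tested, and for 3 without WT 1, these and Fosl2, where it held for 12.0%, so the members' share was not above that of all genes. Fosl2 averaged 8.07 ± 1.10 CPM in KO and 5.75 ± 0.669 CPM in WT 2 to WT 5 (SD, n = 4 each), a log2 fold change of 0.49 ± 0.14 without WT 1 (edgeR adjusted p = 0.0815; 0.0815 to 0.906 over the alternatives). Dusp2 averaged 157 ± 18.3 CPM in KO and 186 ± 4.83 CPM in WT 2 to WT 5, a log2 fold change of -0.24 ± 0.070 without WT 1 (edgeR adjusted p = 0.0929; 0.0929 to 0.713 over the alternatives). Rgs1 was -0.21 ± 0.061 without WT 1 (edgeR adjusted p = 0.0871; 0.0871 to 0.607 over the alternatives), and its KO and WT libraries overlapped. Gadd45b was 0.32 ± 0.10 without WT 1 (edgeR adjusted p = 0.113). With Fosl2, Gadd45b and the EGR genes at positive values and Dusp2, Rgs1 and Cd69 at negative ones, the members gave no single direction between KO and the remaining WT libraries.

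Promoter sequences of the members are given for 7 genes that show the known response elements or the largest ratios. They are RefSeq windows (GRCm38.p6, 250 bases before to 50 after each start), which held 34 windows for 27 of the 34 genes and 32851 windows in all. Windows of a gene with several starts can overlap. Capitals mark CRE half-sites (TGACG) in Fos, the EGR motif (GCGNGGGCG) in Fosb, the CRE (TGACGTCA) in Ppp1r15a and Dusp1, the AP-1 motif (TGANTCA) and NF-kB sites in Tnfaip3, an NF-kB site in Nfkbia and a CArG box in Egr2. Both strands were searched. The half-site, which lies within the CRE, was chosen after the values were seen. It was marked in Fos alone, and matches in Fosb and, outside the CRE, in Dusp1 are left in lower case. The stretches are chr12:85473740-85473889 (plus) for Fos, chr7:19310052-19310201 (minus) for Fosb, chr7:45526269-45526329 (minus) for Ppp1r15a, chr17:26508520-26508669 (minus) for Dusp1, chr10:19015411-19015547 (minus) for Tnfaip3, chr12:55492648-55492797 (minus) for Nfkbia and chr10:67537416-67537565 (plus) for Egr2.
Fos: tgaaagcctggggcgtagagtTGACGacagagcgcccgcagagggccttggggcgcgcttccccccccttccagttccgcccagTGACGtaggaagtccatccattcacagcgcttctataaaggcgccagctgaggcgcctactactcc
Fosb: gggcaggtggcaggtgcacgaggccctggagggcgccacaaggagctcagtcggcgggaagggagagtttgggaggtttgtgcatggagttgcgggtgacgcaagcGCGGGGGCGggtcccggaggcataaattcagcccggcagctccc
Ppp1r15a: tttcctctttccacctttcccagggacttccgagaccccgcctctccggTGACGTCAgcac
Dusp1: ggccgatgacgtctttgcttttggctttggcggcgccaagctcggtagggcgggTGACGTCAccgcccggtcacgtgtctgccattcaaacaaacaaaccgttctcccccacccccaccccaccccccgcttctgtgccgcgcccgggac
Tnfaip3: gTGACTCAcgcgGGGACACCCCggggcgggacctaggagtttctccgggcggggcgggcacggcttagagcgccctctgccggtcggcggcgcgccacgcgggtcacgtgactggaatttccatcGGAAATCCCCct
Nfkbia: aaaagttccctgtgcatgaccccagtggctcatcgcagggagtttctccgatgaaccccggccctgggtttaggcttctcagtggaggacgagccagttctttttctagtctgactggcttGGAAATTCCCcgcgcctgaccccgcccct
Egr2: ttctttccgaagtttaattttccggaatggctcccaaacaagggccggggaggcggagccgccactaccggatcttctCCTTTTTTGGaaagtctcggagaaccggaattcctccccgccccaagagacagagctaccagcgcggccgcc

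The CRE was in 4 of the 34 member windows (11.8%), those of Ppp1r15a, Dusp1, Nfkbid and Btg2, against 1.79% of all windows. Its half-site was in 19 member windows (55.9%), against 20.8% of all. The half-site was not counted by gene, so overlapping windows of a gene can count the same site more than once. The EGR motif was in 9 member windows (26.5% against 5.55%) and the NF-kB site in 8 (23.5% against 4.51%). The CArG box was in 6 windows (17.6% against 1.63%) of Dusp5, Egr2 and Zfp36, and the AP-1 motif in 2 (5.88% against 7.81%), those of Tnfaip3 and Zfp36l1. Overlapping windows of Egr2 hold the same CArG box, which the share of windows counts more than once. Counted by gene, the CArG box was in 3 of the 27 members with a window (11.1%), against 1.81% of all genes with a window. The 4 genes with a CRE ran from 1.24 to 8.09 times the mean of WT 2 to WT 5 in WT 1, and the 3 genes with a CArG box from 0.864 to 3.69 times. These are few genes, and a relation of motif to level was not tested. Egr1, Egr3, Ier2, Myc, Nfkbiz, Cd69 and Rgs1, 7 members, had no window. Bases more than 250 upstream of a start were not searched, so a gene without a match here may hold one farther away. Sites of 30 bases around CArG boxes, boxes in capitals, lie at chr19:53529058-53529087 (plus) for Dusp5, where 2 boxes abut, at chr10:67537787-67537816 (plus) for a second start of Egr2, and at chr7:28379267-28379296 (minus) for Zfp36. A match is a description and not a shown site of binding.
Dusp5: aatacCCATATTTGGCCTTATATGGgcact
Egr2: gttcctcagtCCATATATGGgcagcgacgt
Zfp36: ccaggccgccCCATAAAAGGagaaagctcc

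AU-rich elements, the targets of Zfp36 and Zfp36l1, were frequent in the 3′ UTRs of the set. The nonamer UUAUUUAUU was present in 9 of the 32 members with a 3′ UTR of at least 50 bases in GENCODE M21, against 8.297% of 10871 genes, a measure chosen after the values were seen. The shorter element AUUUA had a median of 2.57 per kilobase in members and 1.198 over all genes. By level in WT 1, the nonamer was in 4 of the 9 members at least 4-fold above the mean of WT 2 to WT 5, in 2 of the 9 between 2-fold and 4-fold and in 3 of the 14 under 2-fold.

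Related genes were followed in 8 lists, chosen by role with earlier results of these data known. Of 26 tested immediate early genes outside the set, 8 were at least 2-fold higher in WT 1 and WT 1 was the highest library for 19, with a median log2 ratio of 0.64. Rgs2 (126.8 CPM in WT 1, against 15.8 to 24.1 CPM in WT 2 to WT 5), Sik1 (242 CPM, against 40.2 to 57.2 CPM) and Rhob (54.3 CPM, against 9.08 to 14.2 CPM) were among them. Of the 11 tested heat shock genes, a class that dissociation also induces, 0 were 2-fold higher in WT 1, with a median log2 ratio of 0.20. Hspa1a, a strongly inducible heat shock gene, had 7 counts over all libraries. Its paralogue Hspa1b had 75 counts and was also too low to test. Hspa1b was at 0.302 CPM in WT 1, against 0.121 to 2.79 CPM in WT 2 to WT 5. The 21 genes of the ERK and SRF pathway upstream of the immediate early genes had a median log2 ratio of 0.04 and 0 at 2-fold, and the 17 NF-kB subunits and other NF-kB targets had 0.08 and 0. The 18 genes of the later T cell receptor response had -0.01 and 0, with Ctla4 the most raised at 584 CPM in WT 1, against 326 to 446 CPM in WT 2 to WT 5. Paralogues of the decay and phosphatase members had a median log2 ratio of 0.21, with Zfp36l2 at 927 CPM in WT 1 against 470 to 548 CPM in WT 2 to WT 5, Dusp6 at 70.0 against 35.3 to 44.6 CPM and Dusp4 at 101 against 49.9 to 69.4 CPM, though 0 of 14 reached 2-fold. The remaining lists, integrated stress and DNA damage response (15 tested genes) and nuclear-retained RNAs (4), had median log2 ratios of 0.02 and 0.01. In the stress list WT 1 was the highest of all 9 libraries for 5 genes and the lowest for 1. Gadd45a was 1.997 times the mean of WT 2 to WT 5, Atf4 1.62 times and Hspa5 1.57 times, whereas Ddit4 was 0.429 times. Of the nuclear-retained RNAs, Malat1 was 1.47 times that mean.

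**Figure D5:**
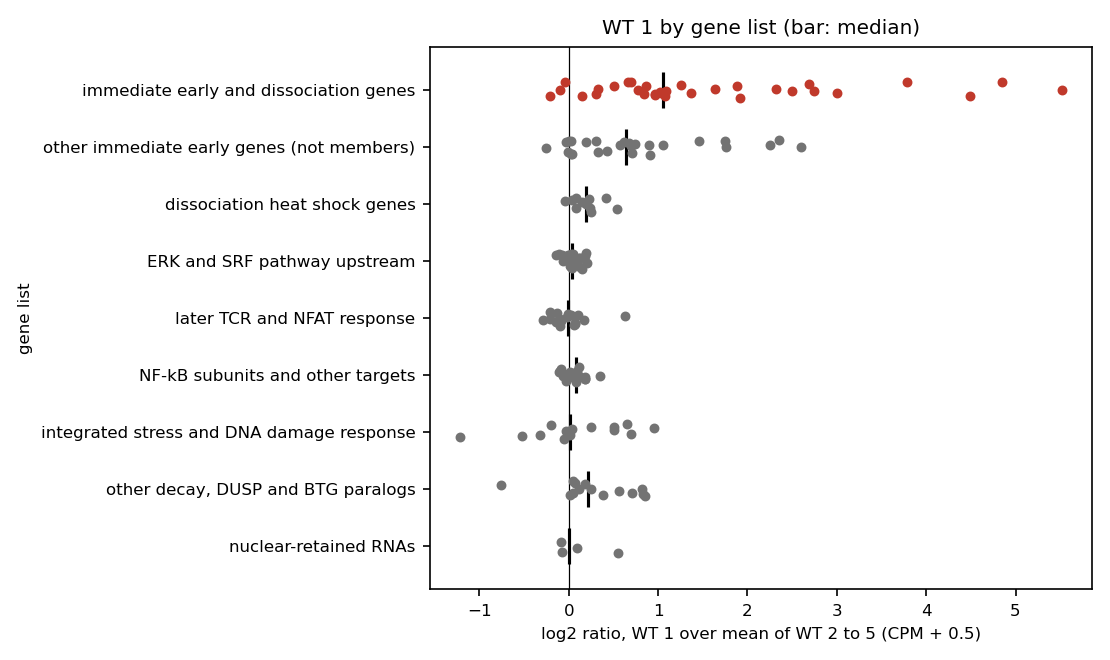
Log2 ratio of WT 1 over the mean of WT 2 to WT 5 for each tested gene of the set (red) and of 8 related lists (grey). Vertical bars are medians, at 1.05 for the set, 0.64 for the other immediate early genes and between -0.01 and 0.21 for the remaining lists.

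Between KO and WT, edgeR's test called 9 genes of the related lists with all libraries, where 1.4% of all genes were called higher in KO and 1.88% lower. The immediate early genes outside the set had 1 of 26 called, Skil, lower in KO (log2 fold change -0.17, edgeR adjusted p = 0.0473). Of the heat shock genes 2 of 11 were called higher, Hsp90ab1 (0.23, edgeR adjusted p = 0.0460) and Hsp90aa1 (0.36, edgeR adjusted p = 0.0469). The later T cell receptor list had 2 of 18 called higher, the inhibitory receptor gene Pdcd1 (0.42, edgeR adjusted p = 0.0204) and Icos, which encodes a costimulatory receptor (0.31, edgeR adjusted p = 0.0231). The remaining calls were Braf and Birc3, lower in KO, and Xbp1 and Ccng1, higher in KO, and each of the 9 calls ended in at least 3 of the 9 fits that left out 1 library (Hsp90ab1 was called in 1 of them, Pdcd1 in 6). Without WT 1 the test called 6 genes of these lists, where 1.02% of all genes were called higher and 1.61% lower. Pdcd1 (edgeR adjusted p = 0.0286), Icos (0.0368) and Hsp90aa1 (0.0401) were still called higher. Il2ra, the gene of CD25 that lets Treg cells bind IL-2, was called lower (log2 fold change -0.23, edgeR adjusted p = 0.0306, against -0.18 and 0.146 with all libraries). Hspa5, an endoplasmic reticulum chaperone gene, was called higher (0.30, edgeR adjusted p = 0.0259, against 0.14 and 0.632 with all libraries). Cdkn1a, which encodes the cell cycle inhibitor p21, was also called higher (1.07, edgeR adjusted p = 0.0433, against 0.90 and 0.0716 with all libraries). Il2ra, Hspa5 and Cdkn1a were named after their values were seen.

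Markers of other cells were read beside the WT 1 values. The 8 Treg markers summed to 4597 to 4942 CPM in KO, 4696 CPM in WT 1 and 4660 to 4905 CPM in WT 2 to WT 5. The 9 macrophage and monocyte markers in the table summed to 74.4, 24.1, 42.7 and 119.7 CPM in KO 1 to KO 4, 69.7 CPM in WT 1 and 20.8 to 38.0 CPM in WT 2 to WT 5, and Cd14 and Ms4a7 were under 1 CPM in every library. B cell markers summed to 36.5 to 52.2 CPM in KO, 40.3 CPM in WT 1 and 31.9 to 35.1 CPM in WT 2 to WT 5, and plasma cell markers to 150.8 to 624 CPM in KO, 169 CPM in WT 1 and 119.7 to 149 CPM in WT 2 to WT 5. Neutrophil markers summed to 1.48 to 125 CPM in KO, 4.29 CPM in WT 1 and 2.00 to 4.83 CPM in WT 2 to WT 5. Markers of dendritic cells summed to 50.9 CPM in WT 1, of CD8 and NK cells to 22.3 CPM, of erythroid cells and platelets to 9.61 CPM and of stromal and endothelial cells to 204 CPM, at 0.899 to 1.197 times the mean of WT 2 to WT 5. Mitochondrial genome transcripts took 1.55% to 1.75% of counts in KO, 2.01% in WT 1 and 1.49% to 1.62% in WT 2 to WT 5. The part of these differences in the values of WT 1 was not tested.

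Counting could mix neighbours in some members, since the sources used here do not say whether strand was used. In GENCODE M21, 9 of the 34 genes overlap another annotated gene, among them Jun with Junos, Junb with Prdx2 and Ppp1r15a with Tulp2, all on the opposite strand, and Dusp1 with Ergic1. Fos, Fosb, Klf4, Tnfaip3 and Nr4a2 overlap none.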

How the data were processed

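RNA of splenic Treg cells, sorted as CD4+ Foxp3+ cells, was sequenced for 4 KO and 5 WT mice, 1 library per mouse, and per the labels' protocols a stranded TruSeq kit was used. The deposited values are whole-number counts for each gene symbol, not normalized by the authors. STAR 2.7, DESeq2 and mm10 appear in the submitters' processing notes without a role. The counting program, the annotation and the use of strand were not given in the sources used here. All 9 columns matched 1 sample each by name and 0 other columns were present. No pair of libraries agreed within sampling noise (chi-square per degree of freedom of 2.34 for the closest pair).

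The test was that of edgeR 4.0.16 under R 4.3.3 (TMM scaling, default expression filter on the groups, robust quasi-likelihood fit, Benjamini-Hochberg adjustment over all genes tested, threshold 0.05). The scripts were first tested on simulated data of all 9 libraries. The test recovered 11 of 50 genes changed 1.2-fold, 40 of 50 changed 1.5-fold, 41 of 50 changed 2-fold and 50 of 50 changed 4-fold. Of its 147 calls, 5 were false. A change near 1.2-fold would thus mostly be missed, and the fit without WT 1 was not simulated. Standard errors were derived from each fold change and its F statistic. WT 1 was compared with WT 2 to WT 5 as a ratio of CPM, with no test. The 34 genes, the related lists and the markers were chosen with earlier results of these data known. All members are accounted for, and genes outside the set were named as the 10 highest and 5 lowest ratios of WT 1 where it lay outside the range of the other 8 libraries (mean of at least 2 CPM, no antigen receptor segments or unnamed gene models), or from the lists by p or by ratio. Alternatives were other scalings and filters, DESeq2 1.42.0, limma-voom (limma 3.58.1), replicate blocks and leaving out libraries. Gene positions are from GENCODE M21 and promoters from RefSeq GRCm38.p6. Intervals cover counting error alone.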

Additional observations from a re-analysis of the deposited data

Results flagged for a closer look

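In 27 of the 34 genes, the gap of WT 1 to the next WT library was more than 0.71 of the whole range of the 5 WT libraries, the size of gap that Dixon's 95% limit sets for a group of 5. WT 1 was singled out for these values, so the count is a description and no test, and the rate of about 1 group in 20 that passes by chance is no measure for it. The share of all genes with such a gap in WT 1 is not given here, so the count is not read as particular to the set. No other WT library had such a gap in either direction. In CPM, the WT 1 values were Junb 2072, Btg1 1256, Tnfaip3 1171, Zfp36 1149, Fos 1078, Dusp1 731, Jund 705, Jun 622, Nr4a1 599, Ppp1r15a 488, Nfkbia 439, Klf6 429, Fosb 401, Rgs1 396, Dusp2 365, Nfkbiz 281, Egr1 253, Ier5 239, Ier2 234, Nfkbid 143, Cd69 142, Dusp5 132, Klf4 56.2, Gadd45b 47.4, Nr4a2 28.1, Fosl2 12.3 and Atf3 1.27. The 7 genes whose WT 1 value did not pass were Egr2, Egr3, Nr4a3, Myc, Ier3, Zfp36l1 and Btg2. Among the 4 KO libraries, Jun in KO 2 (50.7 CPM) and Nfkbiz in KO 1 (146 CPM) stood above the other KO libraries by the same measure. No cause of these values was tested.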

How the results depend on the processing

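Leaving out WT 1 changed the direction of 13 of the 32 members between KO and WT, and the other 19 kept theirs. The median log2 fold change of the 32 members ran from -0.38 to 0.010 when 1 library was left out, the highest without WT 1, and was 0.035 without WT 1, KO 1 and KO 4. Among the fits that left out 1 library, these 13 changed sign without WT 1 and in no other: Fosb ran from -3.46 to 0.25, Junb from -0.90 to 0.16, Jund from -0.27 to 0.095, Egr1 from -0.16 to 0.18, Nr4a2 from -1.08 to 0.17, Klf4 from -2.69 to 0.27, Klf6 from -0.47 to 0.034, Ier2 from -0.35 to 0.12, Ier5 from -0.20 to 0.00081, Dusp5 from -0.19 to 0.19, Zfp36l1 from -0.079 to 0.038, Nfkbid from -0.25 to 0.019 and Gadd45b from -0.34 to 0.32. Without WT 1, KO 1 and KO 4 the members that turned from negative to positive were Fosb 0.18, Jun 0.017, Junb 0.16, Jund 0.13, Egr1 0.17, Klf6 0.15, Ier2 0.20, Ier5 0.050, Dusp5 0.17, Zfp36 0.093, Zfp36l1 0.012, Btg1 0.046, Nfkbid 0.025, Gadd45b 0.17 and Ppp1r15a 0.055. Members called were 0 or 1 when 1 library was left out and 0 without KO 1 and KO 4, with or without WT 1. Genes called in all, 418 with all libraries, ran from 97 (without WT 3) to 697 (without WT 2) and were 118 without KO 1 and KO 4, 250 without WT 1, KO 1 and KO 4, and 908 by DESeq2. With the number in the titles as replicate block, 26 genes and 0 members were called, and with the bracketed one as replicate block 443 genes and 0 members. Same-numbered libraries correlated at -0.067 to 0.10 by title number and at -0.26 to 0.099 by bracketed number, so the numbers were not taken to pair the mice. DESeq2 gave no adjusted p for Fos, Fosb, Jun, Klf4, Nr4a2, Dusp1, Tnfaip3 and Ppp1r15a. Members at least 2-fold higher in WT 1 numbered 16 to 19 under the other scalings, references and left-out libraries tried, 25 at 1.5-fold and 9 at 4-fold. The cause of these changes was not tested.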

Other observations

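Outside the set, 10 genes are named for the largest ratio of WT 1 over WT 2 to WT 5 and 5 for the smallest. They were taken among genes with a mean of at least 2 CPM where WT 1 was above, or for the smallest ratios below, all other 8 libraries, leaving out antigen receptor segments and unnamed gene models. Plk2, a stress-responsive kinase gene, was at 24.5 CPM in WT 1 and 2.32 to 7.21 CPM in WT 2 to WT 5. Rgs16, which damps signals of G protein-coupled receptors, was at 123 CPM in WT 1 and 31.2 to 41.7 CPM in WT 2 to WT 5. Bhlhe40, a transcription factor of activated T cells, was at 192 CPM in WT 1 and 48.9 to 75.9 CPM in WT 2 to WT 5. The cytokine gene Ifng was at 14.5 CPM in WT 1, against 2.82 to 6.12 CPM in WT 2 to WT 5, and Il10 at 14.1 CPM, against 2.96 to 8.85 CPM. Cebpb (17.2 CPM in WT 1, against 3.82 to 7.52 CPM) and Ptp4a1 (34.8 CPM, against 11.1 to 13.2 CPM) followed. Rgs2, Sik1 and Rhob complete the 10.

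Of the 5 genes with the smallest ratio under these limits, Cox17, which carries copper to cytochrome c oxidase, was at 7.37 CPM in WT 1 and 14.9 to 22.7 CPM in WT 2 to WT 5. Ddit4, which encodes the mTOR inhibitor REDD1 and responds to glucocorticoids and stress, was at 75.3 CPM in WT 1 and 134.7 to 243 CPM in WT 2 to WT 5. Gt(ROSA)26Sor was at 4.77 CPM in WT 1 and 8.06 to 11.02 CPM in WT 2 to WT 5. Rab39b (1.57 CPM in WT 1, against 3.27 to 3.74 CPM) and Zfp760 (6.71 CPM, against 11.8 to 14.9 CPM) were the remaining 2 of the 5, and genes outside these limits had smaller ratios. None of these 15 genes had an adjusted p under 0.05 between KO and WT in edgeR's test, with all libraries or without WT 1, and the ratios of WT 1 carry no test.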
